A study of Mus musculus with 12 samples.

Results

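The 8 genes described here act in cholesterol synthesis and its control by SREBP2: Hmgcs1, Sqle, Srebf2, Insig1, Idi1, Fdft1, Lss and Cyp51. They were taken by symbol and chosen with earlier results of these data known, so they are not an unselected set. Each was listed as 1 transcript, and together they made up 8 of the 15803 transcripts with a read in any library. Ribosome-protected fragments (footprints) and RNA-seq reads were measured in KPC cells, a mouse pancreatic ductal adenocarcinoma line from mice in which Pdx1-Cre switches on mutant alleles, Trp53 among them, kept silent by lox-stop-lox cassettes. These alleles were shared by all groups. Cells had 20 µM cisplatin (Cis), a DNA-crosslinking chemotherapy drug, for 6 or 21 h, or were controls that the labels call untreated and the methods of the study PBS. Which of the 6 or 21 h the PBS libraries had is not labelled, and whether the 2 libraries per assay and group were separate cultures is not stated, so that p-values measure the spread between these libraries. The comparisons ask how the level of these transcripts, their occupancy by ribosomes, and the ratio of both (translation efficiency, TE) stood after each time of treatment.

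Cells make cholesterol from acetyl-CoA through mevalonate, isoprenoid diphosphates, squalene and lanosterol. When sterols are low in the endoplasmic reticulum, SCAP carries the membrane-bound factor SREBP2 to the Golgi, where proteases release the part that enters the nucleus and binds sterol regulatory elements in the promoters of nearly every enzyme of the pathway. When sterols are high, INSIG proteins hold SCAP and SREBP2 back. Tumor cells use the pathway for membrane sterols and for the isoprenoids that anchor proteins to membranes.

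Footprint libraries held 3375480 to 5204127 reads and RNA libraries 1985344 to 2901692, of which Lars2, Tmem38b and Mettl26 took 51.8% to 56.6% and left 862476 to 1341584. Reads on a member ran from 87 (Insig1, Cis 21 h) to 3081 (Hmgcs1, PBS) for footprints and from 34 (Fdft1, Cis 21 h) to 464 (Sqle, PBS) for RNA, and the spread between libraries includes this counting error. RPKM is the number of reads on a transcript divided by its length and by the reads of the library, with the coding length for footprints and the transcript length for RNA, so that every value is a share of its library. The 7 epithelial and ductal markers all had reads, with a summed RPKM in footprints of 9113 to 9794 in PBS, 9313 to 9371 at 6 h and 6728 to 6861 at 21 h, and in RNA of 1471 to 1527, 1412 to 1472 and 1322 to 1368. Summed footprints of the 5 leukocyte and macrophage markers were 2.07 to 2.35 RPKM in PBS, 1.73 to 2.31 at 6 h and 3.76 to 10.4 at 21 h, and those of RNA 0.403 to 1.03, 0 and 2.13 to 4.48, with Ptprc, Lyz2 and Adgre1 listed in no RNA library. The 5 fibroblast markers stood between 8.02 and 18.0 RPKM in footprints and between 0.402 and 1.48 in RNA. Of 5 acinar and islet markers only 1, Cela1, had a read, with footprints of 1.69 to 3.23 RPKM in PBS, 2.67 to 3.34 at 6 h and 6.10 to 6.12 at 21 h and RNA between 0.432 and 2.80. The 3 hepatocyte markers had summed footprints of 1.18 to 2.67, 0.772 to 1.66 and 1.96 to 4.52 RPKM, with Cyp7a1 at 0, and the 3 endothelial markers at most 0.666 in either assay. The part of these markers in the results below was not tested, and in bulk libraries fewer cells with a transcript and less of it per cell cannot be told apart.

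In PBS, the footprint level of the 8 genes spread over more than an order of magnitude. Idi1 (472.5 ± 32.2 RPKM, SD, n = 2) and Hmgcs1 (365 ± 20.8) were the highest, above 96.1% and 95.1% of the 10390 transcripts tested. Cyp51 (165 ± 8.08), Sqle (152 ± 10.2) and Fdft1 (126 ± 15.6) came next, then Lss (52.1 ± 2.01), Srebf2 (38.0 ± 1.70) and Insig1 (34.6 ± 4.87). Libraries of Cyp51 and Sqle overlapped, as did those of Srebf2 and Insig1, and the other neighbours in this order did not. The order of RNA levels was another one. Sqle was first with 57.3 ± 1.01 RPKM, followed by Hmgcs1 (41.3 ± 2.37), Idi1 (39.4 ± 2.40), Insig1 (30.4 ± 0.293), Cyp51 (27.4 ± 2.72), Srebf2 (23.0 ± 1.07), Fdft1 (15.3 ± 0.565) and Lss (9.37 ± 0.408), with overlap only between Hmgcs1 and Idi1.

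The ratio of footprint to RNA RPKM accordingly separated the members. In PBS it was 12.0 ± 0.0873 for Idi1, 8.86 ± 1.01 for Hmgcs1, 8.21 ± 0.718 for Fdft1, 6.04 ± 0.894 for Cyp51 and 5.56 ± 0.0276 for Lss, against a median of 3.44 over 9309 transcripts with both values. Sqle had a ratio of 2.65 ± 0.225, and the regulators Srebf2 and Insig1 had 1.65 ± 0.151 and 1.14 ± 0.149. Each of these ratios divided a footprint library by the RNA library of the same number. That match is not a known pairing, and the SDs depend on it, so a small SD is not a measure of replicate spread. From the means of the groups, Idi1 stood above 95.4% of transcripts in this ratio and Insig1 above 7.98%. Between genes the ratio also depends on the annotated lengths, such as 849 coding of 3027 bases for Idi1 and 1716 of 2758 for Sqle. Whether the cells used these transcripts was not tested. The 5 enzymes above the median and the 3 genes below it kept their side in all 3 groups.

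Promoters are shown because the members share a regulator that binds DNA. RefSeq windows (build GRCm38.p6) of the 250 bases before the annotated start were at hand for 6 members, not for Sqle and Fdft1. Searched on both strands were a sterol regulatory element core (TCACNCCA), the E-box (CACGTG), the CCAAT box (CCAAT), bound by NF-Y, and the GC box (GGGCGG), bound by Sp1. The core was in 2 of the 6 windows, those of Hmgcs1 and Srebf2, and in 3.67% of all 32851 windows. The CCAAT box and the GC box were each in all 6 windows, against 33.8% and 32.7% of all windows, and the E-box was in 1, that of Insig1, against 6.02%. No match overlapped another. Only exact matches to these letters were counted, so a window without the core may still hold a variant of it. The windows of Hmgcs1 (chr13:119690101-119690350, plus strand) and Srebf2 (chr15:82147019-82147268, plus strand), which hold the core, and that of Idi1 (chr13:8885356-8885605, plus strand), which does not, follow with the core and the CCAAT box in capitals, in either orientation:
Hmgcs1: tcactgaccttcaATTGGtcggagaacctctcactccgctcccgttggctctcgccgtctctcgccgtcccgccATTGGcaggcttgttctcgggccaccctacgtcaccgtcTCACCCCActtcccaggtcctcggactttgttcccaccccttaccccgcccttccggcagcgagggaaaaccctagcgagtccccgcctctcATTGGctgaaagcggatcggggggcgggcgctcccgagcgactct
Srebf2: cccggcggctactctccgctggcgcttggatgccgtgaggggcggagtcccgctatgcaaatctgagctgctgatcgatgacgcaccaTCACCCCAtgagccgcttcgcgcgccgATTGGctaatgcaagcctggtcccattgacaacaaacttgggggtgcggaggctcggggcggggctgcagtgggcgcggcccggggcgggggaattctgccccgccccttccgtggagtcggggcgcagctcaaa
Idi1: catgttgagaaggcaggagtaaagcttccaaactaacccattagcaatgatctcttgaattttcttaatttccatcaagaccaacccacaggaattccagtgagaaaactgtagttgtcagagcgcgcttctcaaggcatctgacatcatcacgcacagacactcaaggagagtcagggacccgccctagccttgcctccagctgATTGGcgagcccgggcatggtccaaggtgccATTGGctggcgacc
Counted back from -1 at the base before the start, the core spans -137 to -130 in Hmgcs1 and -162 to -155 in Srebf2, with CCAAT boxes beginning at -237, -176 and -45 in Hmgcs1 and at -135 in Srebf2. Those of Idi1 begin at -45 and -14. The letters are a description of these windows, and binding was not measured.

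After 21 h of Cis, footprints fell on 6 of the 8 genes, all enzymes of the pathway: Fdft1, Hmgcs1, Sqle, Idi1, Lss and Cyp51. The falls ranged from 1.55-fold (Cyp51) to 2.79-fold (Fdft1), and footprints of the regulators Srebf2 and Insig1 did not pass the test (limma, Benjamini-Hochberg adjusted p under 0.05). Over all transcripts, 20.2% were called lower in this comparison. The median log2 fold change of the 8 genes was -1.00, beside 0.01 over all transcripts tested. All 8 had both libraries at 21 h below both PBS libraries on the scaled values, which 35.0% of all transcripts did.

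RNA of 7 of the 8 genes fell at 21 h, Srebf2 being the one that did not pass, where 12.2% of all transcripts were called lower. Both libraries of all 8 lay below both PBS libraries in RNA too, as did those of 30.7% of transcripts. The median log2 fold change was -0.83, beside 0.02 over all. The members together took 0.187% and 0.197% of footprint reads in PBS, 0.182% and 0.183% at 6 h, and 0.0905% and 0.0967% at 21 h. Of RNA reads they took 0.0796% and 0.0838%, 0.0740% and 0.0774%, and 0.0490% and 0.0493% in the same order, or 0.175% and 0.181%, 0.170% and 0.178%, and 0.106% and 0.102% of the RNA reads without Lars2, Tmem38b and Mettl26.

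**Figure D1:**
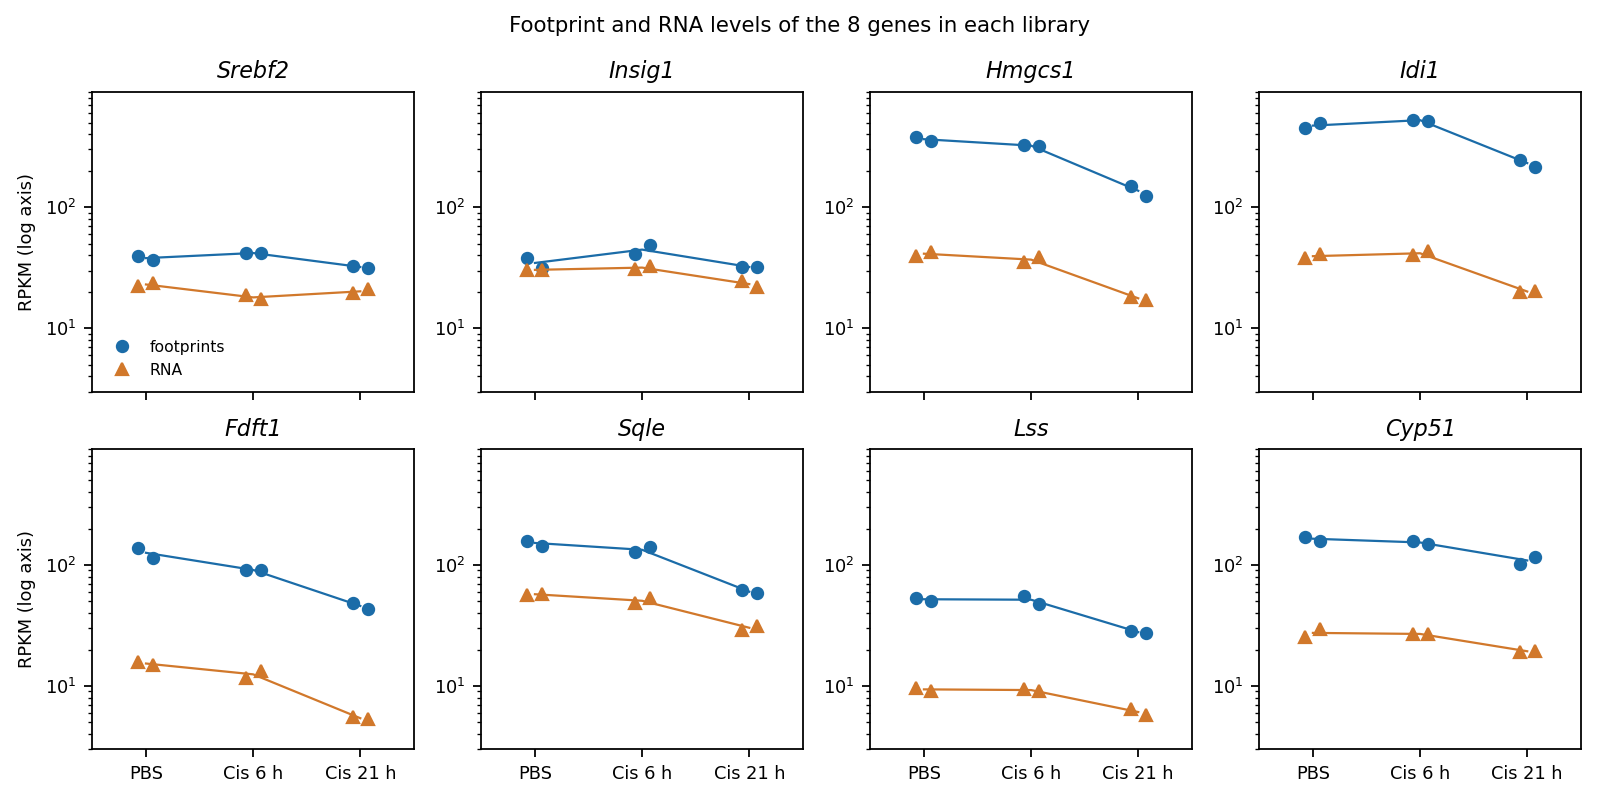
RPKM (log axis) of each of the 8 genes in PBS, Cis 6 h and Cis 21 h, with circles for footprints, triangles for RNA, 1 point per library and lines through group means. The 6 enzymes drop in both assays between 6 and 21 h, and the RNA of Fdft1 ends lowest, at 5.34 and 5.49 RPKM, while Srebf2 and Insig1 stay within 31.2 to 48.4 RPKM in footprints.

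Srebf2 encodes SREBP2 itself. Its footprints were 39.2 and 36.8 RPKM in PBS, 41.6 and 42.1 at 6 h, and 32.7 and 31.4 at 21 h. The 6 h libraries were the highest and the 21 h libraries the lowest, with no overlap between groups. Against PBS, the log2 fold change at 21 h was -0.28 ± 0.11 (SE) with an adjusted p of 0.0716 (limma), and 0.0229 with voom on the reads recovered from RPKM and length. Its RNA was 22.2 and 23.8 RPKM in PBS, 18.7 and 17.3 at 6 h, and 19.5 and 20.9 at 21 h, with log2 fold changes of -0.28 (adjusted p = 0.447, limma) and -0.27 (adjusted p = 0.166). Only the fall of footprints from 6 to 21 h passed (log2 fold change -0.40 ± 0.11, adjusted p = 0.0232, limma). It was lost without either Cis 6 h library (adjusted p = 0.0980 and 0.118) and without the second Cis 21 h library (0.0765).

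Insig1 encodes the membrane protein that retains SCAP, and is itself a target of SREBP2. Its footprints were 38.1 and 31.2 RPKM in PBS, 40.9 and 48.4 at 6 h, and 32.1 and 32.1 at 21 h, and its PBS libraries enclosed the level of the 21 h ones before scaling. The log2 fold change at 21 h was -0.14 ± 0.13 (adjusted p = 0.447, limma), with a 95% interval of -0.44 to 0.17. RNA was 30.6 and 30.2 RPKM in PBS, 30.8 and 32.6 at 6 h, and 24.5 and 21.8 at 21 h, lower at 21 h in both libraries. It fell 1.38-fold against PBS (log2 fold change -0.47 ± 0.13, adjusted p = 0.0261, limma), a call lost without either PBS library (adjusted p = 0.126 and 0.0928) or the second Cis 21 h library (0.144), with RPKM left unscaled (0.0507) and without the trend in eBayes (0.0890). From 6 to 21 h, footprints fell by 0.49 on the log2 scale (adjusted p = 0.0263, limma) and RNA by 0.60 (0.0140). The footprint call was lost without either Cis 21 h library (0.0714 and 0.0739) or the second Cis 6 h library (0.177), and the RNA call without the second library of Cis 6 h (0.0646) or of Cis 21 h (0.0784).

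Hmgcs1, the cytosolic synthase that makes HMG-CoA, had footprints of 379.5 and 350.1 RPKM in PBS, 325 and 320.4 at 6 h, and 149 and 125 at 21 h. Its RNA was 39.6 and 43.0, 35.0 and 38.8, and 18.1 and 17.3 RPKM. In both assays the 21 h libraries lay far below the other 4. At 21 h footprints fell 2.74-fold (log2 fold change -1.45 ± 0.10, adjusted p = 2.78e-05, limma) and RNA 2.43-fold (-1.28 ± 0.12, adjusted p = 0.000195).

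Idi1 interconverts isopentenyl and dimethylallyl diphosphate, the isoprene units of the pathway. Its footprints were 449.7 and 495.3 RPKM in PBS, 528 and 521 at 6 h, and 247 and 216 at 21 h, and its RNA 37.7 and 41.1, 40.1 and 43.2, and 20.0 and 20.2 RPKM. The 6 h libraries were the highest of the 3 groups in footprints, and the 21 h libraries the lowest in both assays. Footprints fell 2.09-fold at 21 h (log2 fold change -1.07 ± 0.09, adjusted p = 0.000110, limma) and RNA 2.05-fold (-1.03 ± 0.12, adjusted p = 0.000413).

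Fdft1, squalene synthase, joins farnesyl diphosphates at the step that commits them to sterols. Footprints were 137 and 115 RPKM in PBS, 90.2 and 91.7 at 6 h, and 48.2 and 43.6 at 21 h, and RNA was 15.7 and 14.9, 11.7 and 13.2, and 5.49 and 5.34 RPKM. Each group lay below the one before it in both assays without overlap. Footprints fell 2.79-fold at 21 h (log2 fold change -1.48 ± 0.11, adjusted p = 4.11e-05, limma) and RNA 2.82-fold (-1.50 ± 0.16, adjusted p = 0.000398), on 34 and 39 RNA reads at 21 h.

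Sqle, squalene epoxidase, adds the oxygen that later becomes the hydroxyl group of cholesterol. Its footprints were 159 and 145 RPKM in PBS, 127 and 139.8 at 6 h, and 62.0 and 58.4 at 21 h, and its RNA 56.6 and 58.0, 48.2 and 52.9, and 29.0 and 31.6 RPKM. Neither assay had overlapping groups. Footprints fell 2.57-fold at 21 h (log2 fold change -1.36 ± 0.10, adjusted p = 3.28e-05, limma) and RNA 1.99-fold (-0.99 ± 0.11, adjusted p = 0.000320).

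Lss, lanosterol synthase, closes the sterol rings. Its footprints were 53.5 and 50.6 RPKM in PBS, 55.3 and 47.8 at 6 h, and 28.2 and 27.5 at 21 h, and its RNA 9.66 and 9.08, 9.50 and 9.00, and 6.44 and 5.74 RPKM. PBS and 6 h overlapped in both assays. At 21 h footprints fell 1.90-fold (log2 fold change -0.93 ± 0.11, adjusted p = 0.000491, limma) and RNA 1.58-fold (-0.66 ± 0.18, adjusted p = 0.0256). The RNA call was lost without either PBS library (adjusted p = 0.134 and 0.0817) and without the second Cis 21 h library (0.123).

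Cyp51, the cytochrome P450 that removes a methyl group from lanosterol, had the smallest log2 fold changes of the 6 enzymes in both assays at 21 h. Footprints were 170.4 and 159 RPKM in PBS, 157 and 150.0 at 6 h, and 102 and 116 at 21 h, and RNA 25.5 and 29.4, 27.0 and 26.8, and 19.1 and 19.6 RPKM. The 21 h libraries were the lowest in both assays. Footprints fell 1.55-fold at 21 h (log2 fold change -0.63 ± 0.09, adjusted p = 0.00120, limma) and RNA 1.49-fold (-0.57 ± 0.13, adjusted p = 0.0105). Without the second PBS library the RNA call was lost (adjusted p = 0.0831).

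The order of the levels had moved at 21 h. In footprints Idi1 (232 ± 21.8 RPKM) and Hmgcs1 (137 ± 17.3) were still first, without overlap, followed by Cyp51 (109 ± 9.64), Sqle (60.2 ± 2.53) and Fdft1 (45.9 ± 3.25). Insig1 (32.1 ± 0.0442) and Srebf2 (32.1 ± 0.927) overlapped each other and now lay above Lss (27.9 ± 0.550). In RNA, Sqle (30.3 ± 1.85) was followed by Insig1 (23.2 ± 1.91), Srebf2 (20.2 ± 1.04), Idi1 (20.1 ± 0.164), Cyp51 (19.4 ± 0.340), Hmgcs1 (17.7 ± 0.588), Lss (6.09 ± 0.494) and Fdft1 (5.42 ± 0.111), where Srebf2 overlapped Idi1 and Cyp51.

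At 6 h of Cis no member was called in either assay (limma), while 2.04% of all transcripts were called in footprints and 0 in RNA. The log2 fold changes of footprints ran from -0.48 (Fdft1, adjusted p = 0.0608) to 0.35 (Insig1, 0.187), the only members with an unadjusted p under 0.05, and those of RNA from -0.28 (Srebf2) to 0.15 (Idi1), with 0 such members. Of all transcripts tested, 2217 of 10390 in footprints and 1086 of 9459 in RNA had such a p. Fdft1 footprints were called lower at 6 h under 3 alternatives: a mean scaled RPKM of at least 5 (adjusted p = 0.0445), a model with only PBS and 6 h (0.0429), and voom (0.000913). With voom no other member was called at 6 h in either assay.

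From 6 to 21 h, footprints of all 8 genes fell, in a comparison in which 15.7% of all transcripts were called lower. The log2 fold changes were -1.26 for Hmgcs1, -1.20 for Idi1, -1.16 for Sqle, -1.00 for Fdft1, -0.89 for Lss, -0.52 for Cyp51, -0.49 for Insig1 and -0.40 for Srebf2, and adjusted p lay between 0.000120 (Hmgcs1) and 0.0263 (Insig1). RNA of 7 members fell, against 8.20% of all transcripts called lower, by 1.27 on the log2 scale for Fdft1, 1.19 for Hmgcs1, 1.18 for Idi1, 0.88 for Sqle, 0.71 for Lss, 0.61 for Cyp51 and 0.60 for Insig1. For Srebf2 RNA the log2 fold change was 0.01 (adjusted p = 0.958, limma), with an interval of -0.28 to 0.30. Of the RNA calls, that of Cyp51 was lost without the first Cis 6 h library (adjusted p = 0.0504) and the second Cis 21 h library (0.0528), and that of Lss without either Cis 6 h library (0.106 and 0.0759) and the second Cis 21 h library (0.124). With RPKM left unscaled, transcripts called in RNA from 6 to 21 h were 1234 higher and 514 lower instead of 712 and 776. The comparisons share libraries, so their values are given side by side and not as independent.

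**Figure D2:**
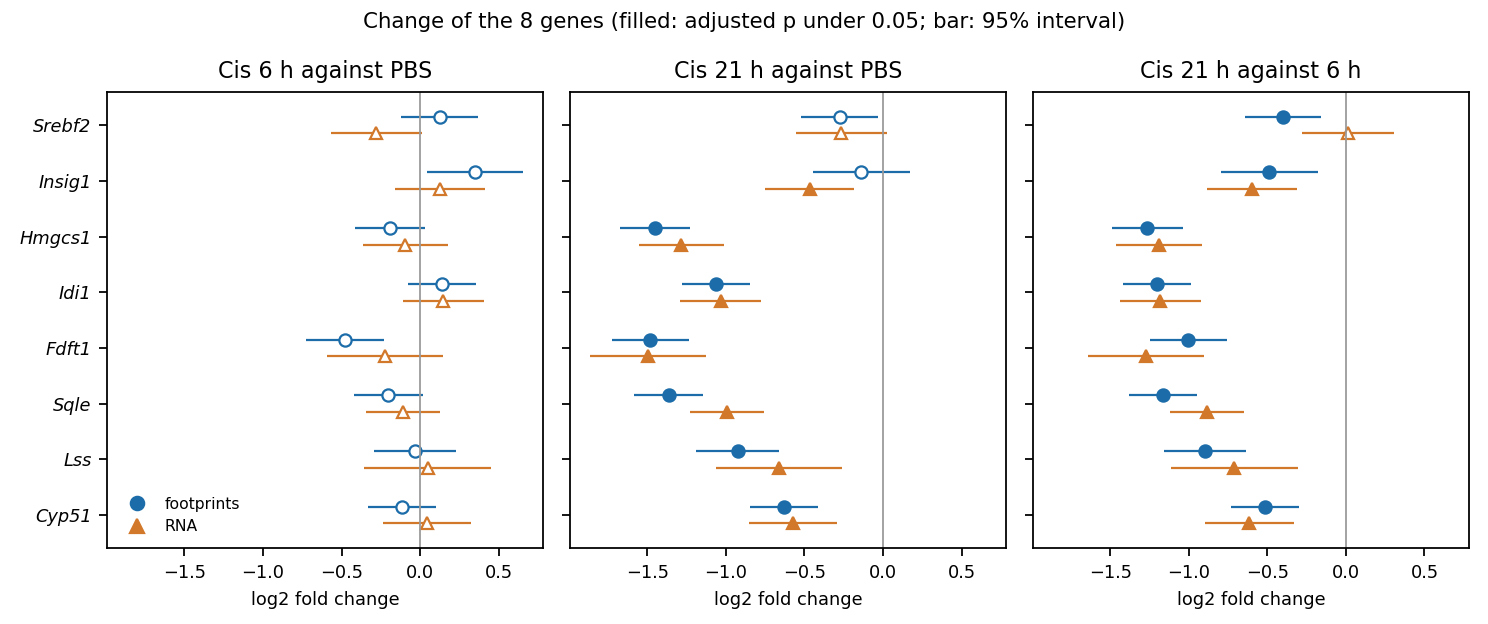
Log2 fold change (x axis) of footprints (circles) and RNA (triangles) of the 8 genes in the 3 comparisons, with 95% intervals of the limma fit and filled points for adjusted p under 0.05. At 6 h all points are open, between -0.48 and 0.35. At 21 h against PBS the 6 enzymes are filled and negative in both assays.

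TE was compared as the difference between the change of footprints and the change of RNA, over all 12 libraries. No member was called in TE at 6 h, at 21 h or between them (limma), where 0, 0.408% and 1.01% of all transcripts were called. With voom no member was called in TE either. Ratios per library again matched footprints and RNA by number. The ratio of Sqle was 2.81 and 2.49 in PBS, 2.63 and 2.64 at 6 h, and 2.14 and 1.85 at 21 h, the lowest libraries of the 6. Its log2 difference at 21 h was -0.37 with an interval of -0.67 to -0.07 (unadjusted p = 0.0194 and adjusted p = 0.300, limma). The ratio of Srebf2 was 1.76 and 1.55 in PBS, 2.23 and 2.43 at 6 h, and 1.68 and 1.50 at 21 h, highest in both 6 h libraries. Its log2 difference was 0.40 at 6 h against PBS (interval 0.06 to 0.75, unadjusted p = 0.0241 and adjusted p = 0.582, limma) and -0.41 from 6 to 21 h (interval -0.75 to -0.07, unadjusted p = 0.0216 and adjusted p = 0.266). These were the members with an unadjusted p under 0.05, 1 of the 8 in each comparison. Of all 9312 transcripts tested, 712 had such a p at 6 h, 1183 at 21 h and 1263 from 6 to 21 h.

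For the other members, the log2 difference of TE at 21 h against PBS lay between -0.26 (Lss, interval -0.69 to 0.16) and 0.33 (Insig1, interval -0.08 to 0.74). It was -0.17 for Hmgcs1 (interval -0.50 to 0.16), -0.06 for Cyp51 (-0.38 to 0.26), -0.03 for Idi1 (-0.33 to 0.27) and 0.02 for Fdft1 (-0.37 to 0.40). The sign of Fdft1 turned with a pseudocount of 1 and with RPKM left unscaled. Changes of TE within these intervals were not detectable at this depth and number of libraries.

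**Figure D3:**
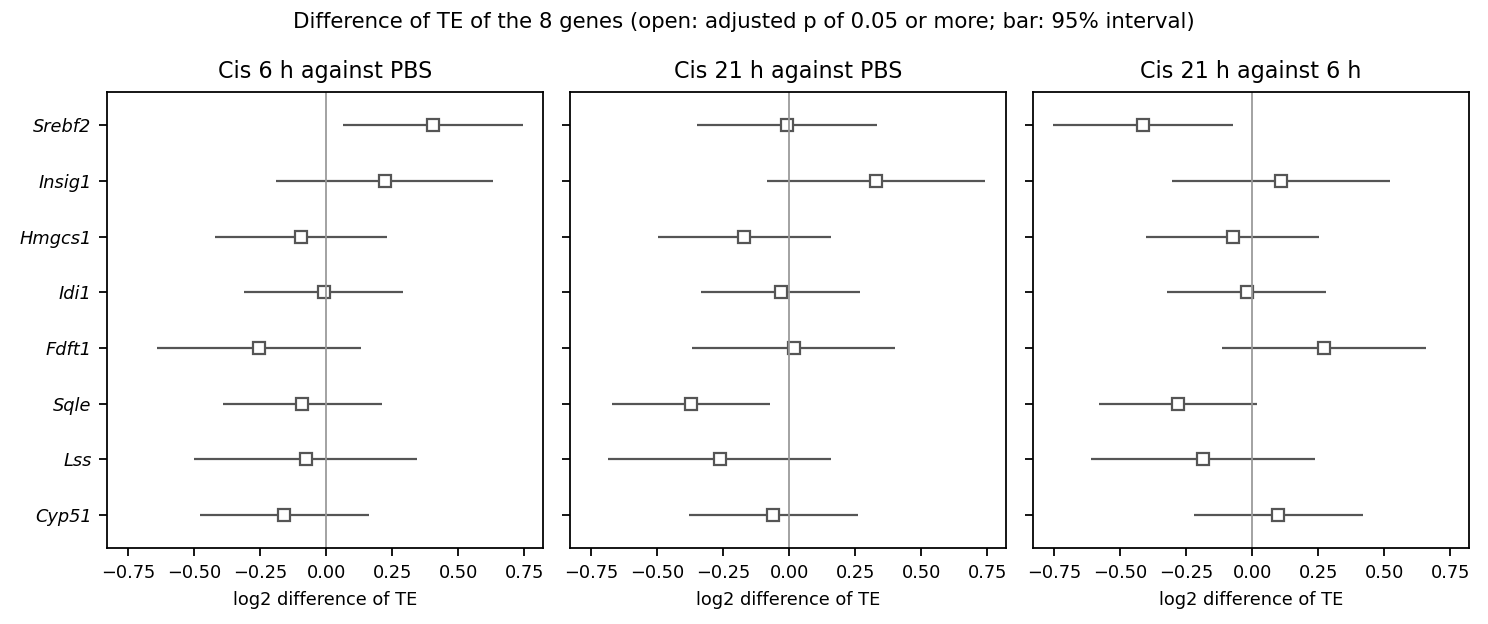
Log2 difference of TE (x axis) of the 8 genes in the 3 comparisons, with 95% intervals of the limma fit. Every point is open, and the intervals that leave out 0 are those of Srebf2 at 6 h and from 6 to 21 h and of Sqle at 21 h.

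The other enzymes of the same route stood beside the members. Of 15 mevalonate and sterol enzymes that are not members, 10 fell and 0 rose in footprints at 21 h, with a median log2 fold change of -0.75, and 8 fell and 0 rose in RNA (median -0.74). Of all transcripts, 20.2% were lower and 18.9% higher in footprints, and 12.2% and 11.6% in RNA. Nsdhl, a sterol dehydrogenase, fell 3.17-fold in footprints, Mvd, mevalonate diphosphate decarboxylase, 2.32-fold and Msmo1, a methylsterol oxidase, 1.65-fold, and RNA of these 3 fell too. At 21 h the RNA libraries held 17 and 13 reads on Nsdhl, 9 and 8 on Mvd, and 141 and 120 on Msmo1.

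The list of SREBP processing and sterol sensing did not move one way. Of 12 genes, 3 fell and 2 rose in footprints at 21 h (median -0.21), where 20.2% and 18.9% of all transcripts did, and 0 fell and 3 rose in RNA (median -0.03), where 12.2% and 11.6% did. Srebf1, which encodes SREBP1 and is the paralog of Srebf2, had footprints of 23.0 and 19.2 RPKM in PBS, 24.7 and 29.2 at 6 h, and 28.7 and 35.6 at 21 h. It rose 1.47-fold in footprints (log2 fold change 0.56, adjusted p = 0.0232, limma) and 1.46-fold in RNA (0.54, adjusted p = 0.0361). For this gene and the others of the pathway lists, alternative settings and left-out libraries were not examined. Scap, the escort of both factors, had -0.62 in footprints (adjusted p = 0.0800) and -0.27 in RNA (0.378). Trib1, a pseudokinase that acts through ubiquitin ligases, rose 2.03-fold in footprints and 2.09-fold in RNA. Mbtps1, the first of the Golgi proteases that cut SREBPs, and Erlin2, a factor of sterol-regulated degradation, fell in footprints, as did Marchf6, an ubiquitin ligase, and the third rise in RNA was that of Erlin1, the latter 2 genes being named after their values were seen.

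Of 10 genes of sterol uptake and transport with enough reads, of 11, 4 fell and 0 rose at 21 h, the same 4 in footprints and RNA (medians -0.19 and -0.20), beside 20.2% and 12.2% of all transcripts called lower. Among them were Stard4, a sterol carrier, and Lipa, the lysosomal lipase that frees cholesterol from its esters. Of 9 genes of export, esterification and LXR, 8 had a read in some library. In footprints 5 were tested, where Nceh1, an esterase, fell and Nr1h2, an LXR, rose. Of all transcripts, 20.2% were lower and 18.9% higher there, so these calls are near the background. In RNA 4 were tested, where Nceh1 and Soat1 fell, the last named after its values were seen, beside 12.2% of all transcripts. A list this short does not show a shift of the group. Nr1h2 RNA, not called, was 8.13 and 7.76 RPKM in PBS and 6.66 and 5.74 at 21 h. Fatty acid synthesis, the branch more often tied to SREBP1, had 9 of 11 genes lower and 0 higher in footprints (median -0.50) and 7 lower in RNA (median -0.62), beside the same 20.2% and 12.2%. Acaca, acetyl-CoA carboxylase, fell 4.48-fold in footprints and Elovl6, a fatty acid elongase, 3.79-fold, and the desaturase Scd2 and malic enzyme Me1 had log2 fold changes of -0.79 and -0.89. In the isoprenoid branches that leave the route before squalene, 3 of 11 genes fell in footprints (Pdss2, Coq2 and Fntb), 2 rose (Rabggtb and Ggps1, the last named after its values were seen) and 1 fell in RNA (Pdss2), with medians of 0.01 and -0.05, and the footprint counts lie near the 20.2% lower and 18.9% higher of all transcripts. The RNA falls of Pdss2 and Nceh1 rest on few reads, 2 and 6 on Pdss2 and 6 and 8 on Nceh1 at 21 h. In TE, 0 genes of any of these lists passed at 21 h, with 7 of the 63 tested at an unadjusted p under 0.05, beside 1183 of all 9312 transcripts tested.

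**Figure D4:**
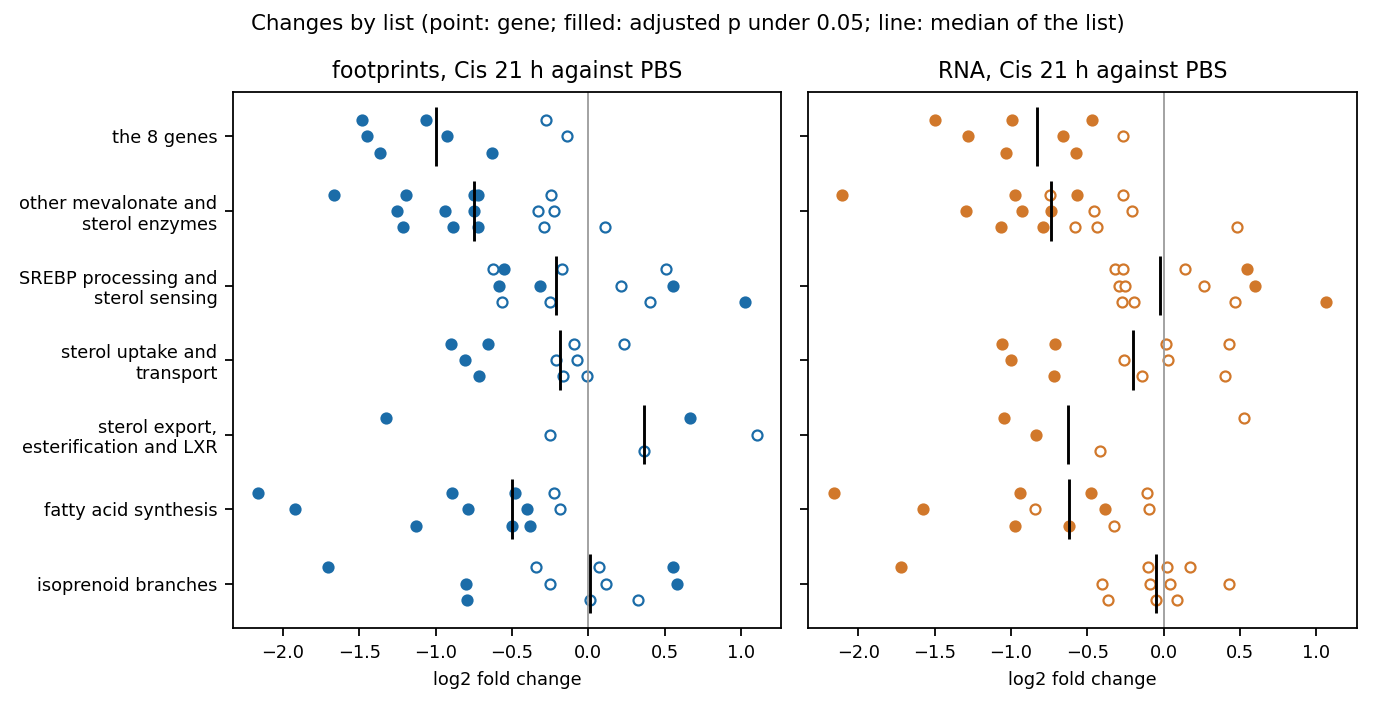
Log2 fold change (x axis) at 21 h against PBS for each gene of the 8 and of the 6 pathway lists, footprints on the left and RNA on the right, with filled points for adjusted p under 0.05 and a line at the median of each list. The medians of the 8 genes (-1.00 and -0.83) and of the other sterol enzymes (-0.75 and -0.74) lie far left of 0, and that of the isoprenoid branches lies near 0.

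Across the 12 libraries, the profile most like the mean of the 8 genes among 3470 other transcripts belonged to Anxa3, an annexin (Pearson r = 0.996), then to Ywhaz, a 14-3-3 protein (0.994), Snd1, a nuclease-domain protein (0.990), Ptprs, a receptor tyrosine phosphatase (0.986), and Ly6e, a surface protein (0.986). Anxa3 footprints were 566 and 539 RPKM in PBS, 491 and 490.1 at 6 h, and 271 and 261 at 21 h. The likeness is of shape and not of size, since Snd1 footprints went from 157 and 169 RPKM to 11.2 and 13.7, and those of Ywhaz from 6069 and 5604 to 4361 and 4362. Among the 100 most alike, 7 were in the pathway lists, to which 29 of the 3470 transcripts compared belonged. Many list genes fell at 21 h, as given above, so this count is not separate from those falls. Of the members themselves, Hmgcs1 had an r of 0.997, Sqle 0.988, Idi1 0.980, Fdft1 0.975 and Cyp51 0.969, and Insig1 and Srebf2 had 0.791 and 0.735, each being part of the mean it was compared with. The points share libraries and treatment groups, and Lss was left out for a mean RNA level under 10 RPKM.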

How the data were processed

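Ribosome profiling and RNA-seq libraries of KPC cells (2 per assay and group, 12 in all) were grouped by their labels. The authors deposited RPKM for 1 transcript per gene and library, without pooling, and their processing notes name cutadapt, STAR and GRCm39, without versions. Footprints were per coding length and RNA per transcript length, and with these lengths all values came out as whole reads (tolerance 0.001). Read numbers cover counting error only. Unlisted transcripts were set to 0.

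Size factors (median of ratios) were applied to RPKM separately for footprints and RNA. Kept were transcripts whose scaled RPKM averaged 1 or more, which left 10390 in footprints, 9459 in RNA and 9312 in TE. The log2 of RPKM plus a pseudocount of 0.5 went into limma 3.58.1 (R 4.3.3, eBayes with trend), with the 3 groups of an assay in 1 model and TE as the interaction of assay and treatment. Fold changes are on that scale and understate those of low transcripts. All tests were two-sided, and p was adjusted by Benjamini-Hochberg over all transcripts of a comparison, with a threshold of 0.05. An exact permutation test of 2 libraries against 2 has a smallest p of 0.333 and was not run. Fits were also run on simulated reads with 1 set spread for every transcript and group. The spread of these libraries differed between groups, so the simulation does not vouch for the calls, and no result here rests on it. Alternatives changed the pseudocount (0.1 or 1), the minimum (none or 5), the scaling (none), the trend (none) or the samples (only the groups compared, or each library left out), added a replicate block, or used voom on the recovered reads. Named were all members, Srebf1, Scap, up to 4 genes of each list with the lowest adjusted p in footprints at 21 h, and the 5 most alike profiles among transcripts averaging 10 or more scaled RPKM in both assays. Members, lists and rules were chosen with earlier results of these data known. Some genes that these rules would name are not reported here by name. Promoters came from RefSeq (GRCm38.p6), and no coordinate was converted.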

Additional observations from a re-analysis of the deposited data

Results flagged for a closer look

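The effects of 6 h and of 21 h of Cis, both against PBS, differed in 15 of the 16 member results for footprints and RNA, by the test of 21 h against 6 h (limma, adjusted p under 0.05). Of all transcripts, 3188 of 10390 in footprints and 1488 of 9459 in RNA were called in that test in either direction. Those called lower, as all 15 were, made up 15.7% in footprints and 8.20% in RNA. In footprints the log2 difference was -1.26 for Hmgcs1, -1.20 for Idi1, -1.16 for Sqle, -1.00 for Fdft1, -0.89 for Lss, -0.52 for Cyp51, -0.49 for Insig1 and -0.40 for Srebf2. In RNA it was -1.27 for Fdft1, -1.19 for Hmgcs1, -1.18 for Idi1, -0.88 for Sqle, -0.71 for Lss, -0.61 for Cyp51 and -0.60 for Insig1. Groups of 2 libraries were too small for a search for single libraries apart from the others.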

How the results depend on the processing

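Calls of members in footprints at 21 h numbered 6 in every alternative except voom, where Srebf2 made them 7, and no called member result changed sign. Footprint calls at 6 h were 1 (Fdft1) instead of 0 with a minimum of 5, with only the groups compared and with voom. With a library left out, members called ranged from 4 to 7 in RNA at 21 h (4 without the second PBS library) and in RNA from 6 to 21 h (4 without the second Cis 21 h library), and from 6 to 8 in footprints from 6 to 21 h. Other calls lost were, from 6 to 21 h without the trend, Insig1 footprints (adjusted p = 0.0635, limma) and RNA (0.0667) and Cyp51 RNA (0.0554), and, for Lss RNA from 6 to 21 h, those with no filter (0.0511), no scaling (0.0540) and only the groups compared (0.0505).

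Transcripts called in footprints at 6 h were 212, but 17 with no filter, 341 with a minimum of 5, 442 with only the groups compared, 1276 with voom, 0 without the trend and 0 to 398 with a library left out. In RNA at 6 h they were 0, but 228 with voom and 0 to 1 with a library left out. In TE at 21 h they were 38, but 8 with no filter, 67 with a minimum of 5, 3 with only the groups compared, 207 with voom, 0 without the trend and 2 to 43 with a library left out. In TE from 6 to 21 h they were 94, but 54 with no filter, 154 with no scaling (42 higher and 112 lower, instead of 55 and 39), 49 with only the groups compared, 227 with voom, 4 without the trend and 15 to 81 with a library left out. In TE at 6 h they were 0, but 1 with a pseudocount of 0.1 and 19 with voom. In RNA from 6 to 21 h they were 1488, but 918 with no filter, 790 without the trend and 684 to 1201 with a library left out. With a library left out they also ranged from 1602 to 2986 in footprints from 6 to 21 h and from 1059 to 2310 in RNA at 21 h. With no scaling, the median log2 change of all transcripts moved from 0.01 to 0.15 in RNA and from -0.04 to -0.16 in TE from 6 to 21 h. The cause of these differences was not tested.

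Signs turned only in results that were not called. With no scaling, log2 values became -0.025 for Cyp51 and -0.018 for Lss RNA at 6 h, 0.072 for Idi1 and 0.0015 for Lss TE at 6 h, -0.024 for Fdft1 TE at 21 h, and -0.029 for Cyp51 and -0.019 for Insig1 TE from 6 to 21 h. Fdft1 TE at 21 h was -0.051 with a pseudocount of 1. With a library left out, values ranged at 6 h from -0.13 to 0.073 (Lss footprints), -0.046 to 0.12 (Cyp51 RNA), -0.014 to 0.10 (Lss RNA), -0.11 to 0.073 (Idi1 TE) and -0.18 to 0.025 (Lss TE). At 21 h TE ranged from -0.14 to 0.040 (Cyp51), -0.093 to 0.12 (Fdft1), -0.12 to 0.071 (Idi1) and -0.038 to 0.028 (Srebf2). From 6 to 21 h the ranges were -0.044 to 0.066 (Srebf2 RNA), -0.20 to 0.053 (Hmgcs1 TE), -0.11 to 0.073 (Idi1 TE) and -0.011 to 0.23 (Insig1 TE).

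A replicate block changed no call of a member, with 6 and 8 called in footprints and 7 and 7 in RNA (at 21 h and from 6 to 21 h), as without it, and 0 in TE. Transcripts called with the block were 37 in footprints at 6 h, and 1, 5 and 43 in TE at 6 h, at 21 h and from 6 to 21 h. Within each assay, deviations of samples that share a number correlated between groups at -0.01 to 0.02, so the numbers were not taken as a pairing of groups. Whether footprint and RNA libraries of the same number came from the same lysate is not labelled. A pairing between the assays was not tested, and the TE model took the libraries as independent. RNA reads on a member numbered 34 to 464 and footprint reads 87 to 3081, and differences within this counting error were not detectable.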
